A study of Petunia x hybrida with 7 samples.

Results

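A set of 629 genomic regions carried a peak of PhDEF binding in wild-type petunia petals and none in the petals of either of 2 chimeras. They were chosen by the deposited peak lists themselves. Peaks of the wild-type, wico and star lists on the 7 long scaffolds of the assembly were pooled, peaks sharing at least 1 bp were merged into 5073 regions, and the regions that held wild-type peaks alone were kept. These made up 12.4% of all regions and 23.4% of the 2684 regions with a wild-type peak (exact 95% interval 21.8 to 25.1%). Each of the 629 regions consisted of a single entry of the wild-type list, so the terms region and peak are used for them alike. Of these entries, 42 were pieces of 22 peaks that the list gives in several pieces, and each piece is counted on its own. For 7 of them another piece of the same peak was shared with a chimera. With uncut spans and joined pieces there were 603 regions. Of their features, all were measured in the experiment that chose them, and the values below are therefore descriptions without tests.

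PhDEF is a MADS-domain transcription factor of the B class, the group that gives petals their identity in the flower of petunia and related plants. B-class proteins bind DNA as dimers, at sequences known as CArG boxes. A petal is built of an epidermis over an inner mesophyll, and in a chimera these layers can differ in genotype. Chromatin immunoprecipitation followed by sequencing (ChIP-seq) recovers the DNA bound by a protein, and a peak is a stretch where the recovered DNA piles up.

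All plants belonged to cultivar R27, and the material was the whole petal, tube and limb, at flower stage 8. The wild type carries functional PhDEF in both layers. Petals of wico have a wild-type epidermis over a phdef mutant mesophyll, and those of star have a phdef mutant epidermis over a wild-type mesophyll, so that both chimeras still hold functional PhDEF in a layer of the same organ. Each genotype had 2 biological replicates of immunoprecipitated chromatin, and wild-type petals also gave the only input library. The authors deposited 1 list of reproducible peaks per genotype, with 3134 wild-type, 4276 wico and 2216 star peaks, of which 2687, 3692 and 1781 lay on the long scaffolds. The lists hold no read counts, so the depth is unknown and intervals cover counting error over peaks only. A site that fell below the reporting threshold in a chimera cannot be told apart from a site that was not bound there, and in whole petals fewer bound cells cannot be told apart from weaker binding per cell. The positions below are 1-based in the scaffolded assembly of the files, whose build name is not given in the sources used here. No gene annotation was used, so the regions are named by position.

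The regions found in the wild type alone were concentrated at the weak end of the wild-type list. Peaks were ranked by the authors' signal value summed over both replicates, a value without a stated unit, and the strongest peak has a percentile of 100. The median percentile of the 629 regions was 19.6 (95% interval of the median 17 to 21.5), against 59.9 (57.8 to 61.7) for the 2058 wild-type peaks on the same scaffolds that met a chimera peak. The summed signal of the regions ran from 7.11 to 21.0 with a median of 8.25, whereas shared wild-type peaks ran from 7.13 to 42.1 with a median of 10.98. The 2 ranges thus began at nearly the same value and differed at the upper end. With all lists limited to a global IDR of at most 0.02, 225 regions, or 14.8% of wild-type peaks, were found in the wild type alone, with a median percentile of 53.3 in the whole list.

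By count, 366 of the 629 regions, or 58.2% (54.2 to 62.1%), lay in the lower 25% of the list, and 101, or 16.1% (13.3 to 19.2%), in its upper 50%. The upper 25% held 15 of them and the upper 10% held 4. Among shared wild-type peaks, 13.8% lay in the lower 25% and 31.6% in the upper 25%. Divided into 10 rank groups of equal size, named deciles here, the whole list showed a falling share of wild-type-only peaks with rising rank. In the weakest decile 196 of 261 peaks on the long scaffolds, or 75.1% (69.4 to 80.2%), belonged to the set, and in the next decile 123 of 255, or 48.2% (42.0 to 54.6%). The share was 19.3% in the fifth decile and 19.7% in the sixth, which lie within each other's intervals. It then fell to 9.06% in the seventh decile and to 4 of 262 peaks, or 1.53% (0.418 to 3.86%), in the strongest.

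**Figure D1:**
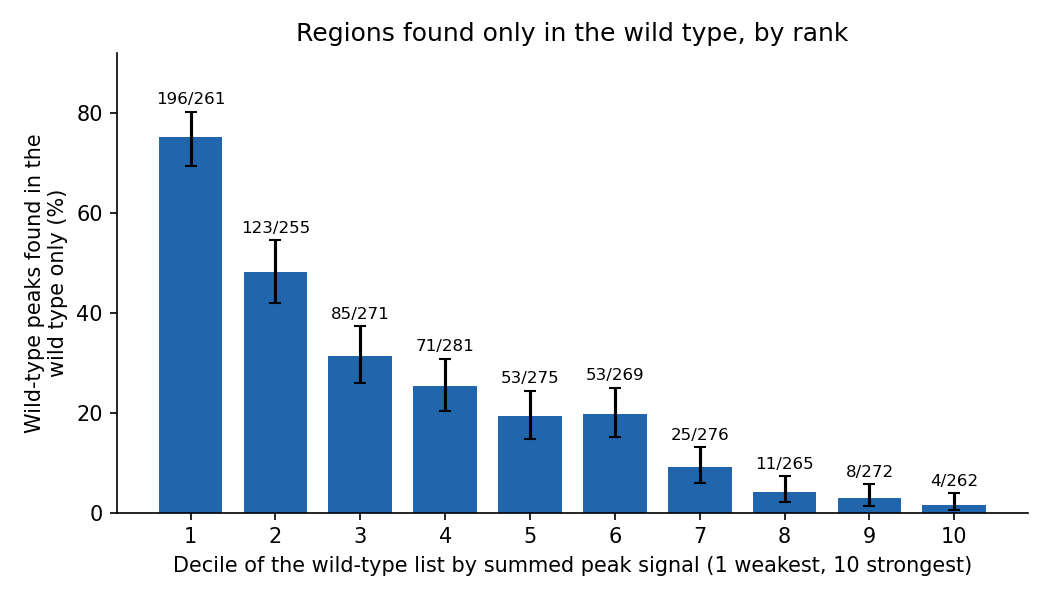
Share of wild-type peaks on the 7 long scaffolds that were found in the wild type only (percent, vertical axis) in each decile of the wild-type list by summed signal (horizontal axis, 1 weakest). Bars are shares with exact 95% intervals and the numbers are counts; the share falls from 75.1% in decile 1 to 1.53% in decile 10.

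Reproducibility between replicates was taken from a list column read, from its values, as −log10 of the global irreproducible discovery rate (IDR). It was lower in the set than in shared peaks over all ranks, with a smaller difference within deciles of the list. The median was 1.26 (1.23 to 1.29) for the 629 regions and 2.18 (2.12 to 2.25) for shared wild-type peaks. A global IDR above 0.05, close to the limit of 0.1 of the list, was found for 346 regions, or 55.0% (51.0 to 58.9%), against 13.4% (12 to 15.0%) of shared peaks. At the other end, 140 regions, or 22.3% (19.1 to 25.7%), had a global IDR of at most 0.02, against 67.1% of shared peaks. A single region reached the cap of 5 on the −log10 scale, against 69 shared peaks, or 3.35%. Within deciles the median was the lower in the set in 7 of 10 and the higher in 3, with medians of 1.09 in the set and 1.08 in shared peaks of the weakest decile and of 2.404 and 2.904 in the eighth.

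More regions had a weak signal in both replicate columns than a strong signal in 1 of them. This was in part set beforehand, since the list holds reproducible peaks only and the set ranked low by the sum of these columns. The limits used below for the 2 counts also differ. In the first column the regions ranged from 3.38 to 8.80 with a median of 3.82, and in the second from 3.55 to 12.2 with a median of 4.35. Shared wild-type peaks had medians of 4.70 and 6.22 in the same columns. In total, 228 regions, or 36.2% (32.5 to 40.1%), lay in the lower 25% of the list by both columns, against 5.25% of shared peaks. Only 17 regions, or 2.70% (1.58 to 4.29%), lay in the upper 25% by 1 column and in the lower 50% by the other, against 5.73% (4.77 to 6.83%) of shared peaks. The upper 50% by both columns held 45 regions, or 7.15%, against 46.5% of shared peaks.

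The first column was the higher in 158 regions, or 25.1% (21.8 to 28.7%), and in 12.3% of shared peaks. On the log2 scale the first column divided by the second had a median of -0.14 (-0.16 to -0.13) in the set and -0.36 (-0.38 to -0.34) in shared peaks. This difference did not run in the same direction at each rank, because within deciles of the list the median ratio was lower in the set in 5 of 10 deciles and higher in the other 5. Across the 629 regions, the rank correlation of the columns was 0.351, and it was 0.660 across the 2058 shared peaks, given here as a description of peaks that come from the same 2 libraries. The order turned among peaks of the lower 50% of the list, where the correlation was 0.131 across 528 regions of the set and -0.0854 across 815 shared peaks. Ranks rest on the sum of both columns, and an upper limit on a sum lowers the correlation of its parts by construction. That lower 50% held 528 of the 629 regions and 815 of the 2058 shared peaks, so the same restriction weighs more on the whole set. Neither the values in the lower 50% nor the difference between 0.351 and 0.660 is therefore a measure of replicate agreement.

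**Figure D2:**
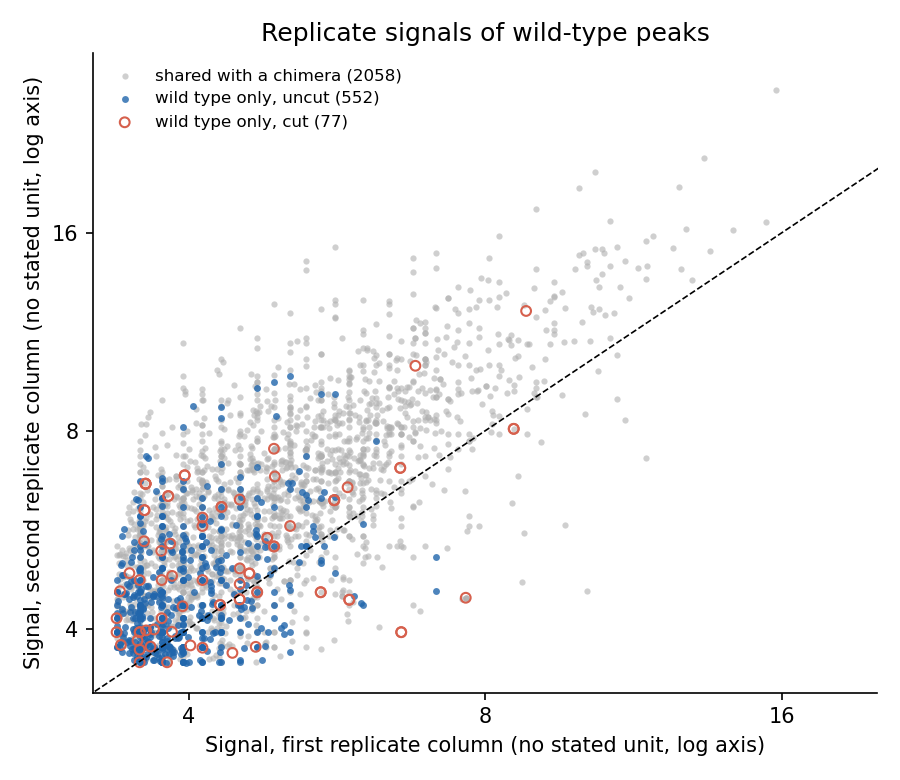
Signal in the first (horizontal axis) and second (vertical axis) replicate column of each wild-type peak on the long scaffolds, both on log axes without a stated unit. Grey points are the 2058 peaks shared with a chimera, blue points the 552 uncut regions found in the wild type only and red rings the 77 cut ones; the dashed line marks equal signals, and the blue points crowd at the lower left.

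The positions of the replicate peaks differed more in the set than in shared peaks. The summits of the 2 replicates lay a median of 42 bp apart in the set (38 to 48 bp) and 25 bp apart in shared peaks (24 to 27 bp). Distances above 200 bp were found in 93 regions, or 14.8% (12.1 to 17.8%), against 4.66% (3.79 to 5.67%) of shared peaks. The interval common to both replicates covered a median of 64.4% of their union in the set and 73.3% in shared peaks. The order of these values within deciles of the list was mixed. The common interval was the smaller in the set in 6 of 10 deciles and the larger in 4. In the weakest decile the median summit distances were 59.5 bp and 44 bp, and the distance was the larger in the set in 7 of the 10 deciles. In the strongest decile, whose 4 regions were all cut, the median distance was 208.5 bp in the set and 16 bp in shared peaks. That value counts a single peak on HiC_scaffold_5, with summits 375 bp apart, once for each of 2 pieces. The other 2 regions had summits 42 bp and 22 bp apart.

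The median width of the regions was 387 bp (375 to 404 bp), with a range from 119 to 1425 bp, and shared wild-type peaks had a median of 435 bp (426 to 445 bp). Within deciles of the list, the median width was lower in the set in 8 of 10 deciles. The weakest decile was one of the exceptions, where it was 417.5 bp in the set and 370 bp in shared peaks. A wider peak meets a peak of another list more readily, so width was not independent of the choice. The 3 widest regions had replicate summits far apart. The widest, HiC_scaffold_3:109189015-109190439, had a percentile of 3.29, and the intervals of its replicates shared 8.97% of their union, with summits 929 bp apart. HiC_scaffold_1:104890768-104891971 had a percentile of 5.78, an overlap of 18.0% and summits 968 bp apart. HiC_scaffold_6:77996948-77998243, at a percentile of 48.2, had summits 616 bp apart but an overlap of 71.9%, near the median of shared peaks.

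Peaks that had lost part of their length were more frequent among the regions found in the wild type alone than among shared wild-type peaks. For each peak the lists also give the intervals in the single replicates, and most listed peaks equal the union of these intervals. In 77 of the 629 regions, or 12.2% (9.78 to 15.1%), the listed peak was shorter than that union and is here termed cut, against 66 of 2058 shared peaks, or 3.21% (2.49 to 4.06%). The list names state that input was removed, and whether this step made the cuts is not stated. Of the 143 cut wild-type peaks on the long scaffolds, 53.8% belonged to the set, and of the 2544 uncut ones 21.7%. A peak given in pieces counts once per piece in these shares and intervals. A shortened peak or piece also meets a chimera peak less readily, so cutting was not independent of the choice. The share of cut peaks was the higher in the set in 9 of the 10 deciles of the list.

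Cut regions ranked higher than the rest of the set, with a median percentile of 42.5 (32.4 to 50.1) against 17.6 (15.3 to 19.9) for the 552 uncut ones. All 4 regions in the upper 10% of the list were cut, and no uncut region had a percentile above 86.5. Of the cut regions, 42 were pieces of 22 peaks that the list gives in several pieces with the same signal. Each piece counts on its own in the median of the cut regions, and the interval of that median treats pieces as independent. In 7 regions another piece of the same peak was shared with a chimera, and the uncut spans of these 7 met the uncut span of a chimera peak. The other 622 regions met no chimera peak when the uncut spans of all lists were compared. Spans exist for listed peaks only, so a chimera peak missing from its list as a whole could not be seen in this comparison.

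Regions held by star alone were cut about as often, and those held by wico alone less often. In the star list 74 of the 620 peaks found there only were cut, or 11.9% (9.49 to 14.8%), against 2.58% (1.75 to 3.67%) of shared star peaks. In the wico list these shares were 3.59% (2.72 to 4.63%) of 1561 and 2.82% (2.16 to 3.61%) of 2131. Regions held by a single list ranked low in each list, with median percentiles of 19.6 in the wild type, 29.0 (27.2 to 30.9) in wico and 29.3 (25.9 to 32.3) in star, each within its own list. Such regions made up 23.4% of wild-type, 42.3% of wico and 34.8% of star peaks on the long scaffolds. The lists differ in length, and a longer list leaves fewer peaks of the others unmet, so these shares do not compare binding between genotypes.

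**Figure D3:**
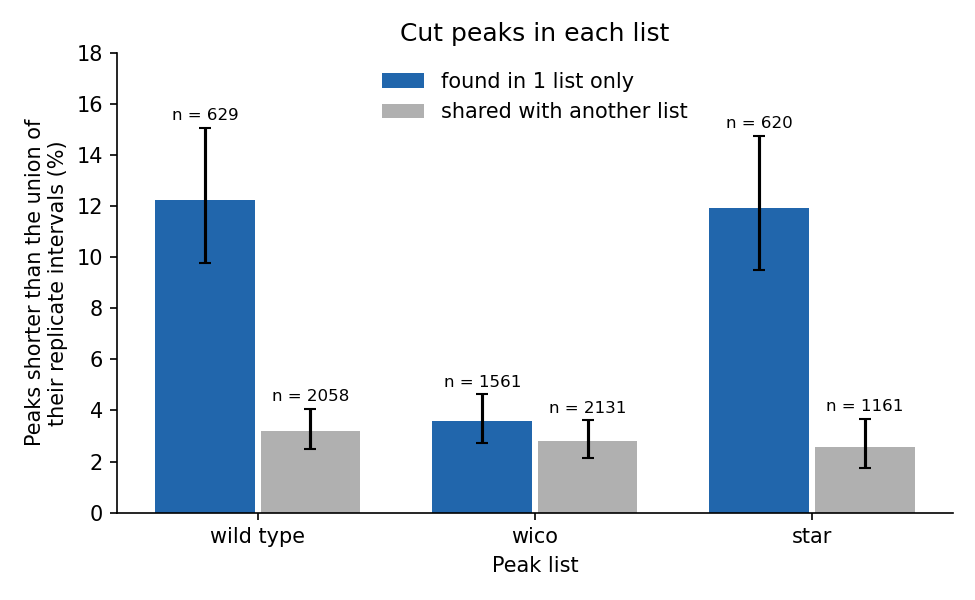
Share of peaks (percent, vertical axis) that were shorter than the union of their 2 replicate intervals, in each list on the long scaffolds. Blue bars are peaks found in that list only and grey bars peaks shared with another list, with exact 95% intervals; the wild-type and star bars reach 12.2% and 11.9% for peaks of a single list, and the others stay between 2.58% and 3.59%.

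The strongest region of the set, HiC_scaffold_1:131133132-131134058, ranked 83 of 3134 with a percentile of 97.4. Its signals were 8.80 and 12.2 in the first and second replicate columns, which put it at a percentile of 96.8 in both. Its −log10 IDR was at the cap of 5, and the replicate intervals shared 94.5% of their union, of which 208 bp were missing from the listed peak. The nearest star peak was 157128 bp away and the nearest wico peak 157139 bp. A strong and reproducible peak thus stood alone among the listed peaks here, apart from the cut at its edge. The second, HiC_scaffold_1:121311384-121311719, had a percentile of 92.5 with signals of 6.79 and 10.0, lacked 92 bp of its union, and lay 47963 bp from the nearest wico peak.

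The next 2 in strength were pieces of a single peak on HiC_scaffold_5, at 112226431-112226718 and 112227387-112227594. The peak had signals of 8.55 and 8.05 and a percentile of 91.6, and its replicate intervals spanned 3010 bp, of which the list gives 3 pieces. The largest piece, of 1144 bp, was met by a star peak of 866 bp that had a percentile of 18.7 in its own list. The other 2 pieces had no counterpart, so the set counts 2 regions here although the uncut peak was shared with star. A similar case was HiC_scaffold_1:126909159-126909323, a piece of 165 bp of a peak given in 4 pieces. The other 3 pieces were met by the 3 pieces of a star peak, 2 of them with the same edges in both lists, and the star peak had a percentile of 86.7. The nearest star peak was 218 bp from the unmatched piece.

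**Figure D4:**
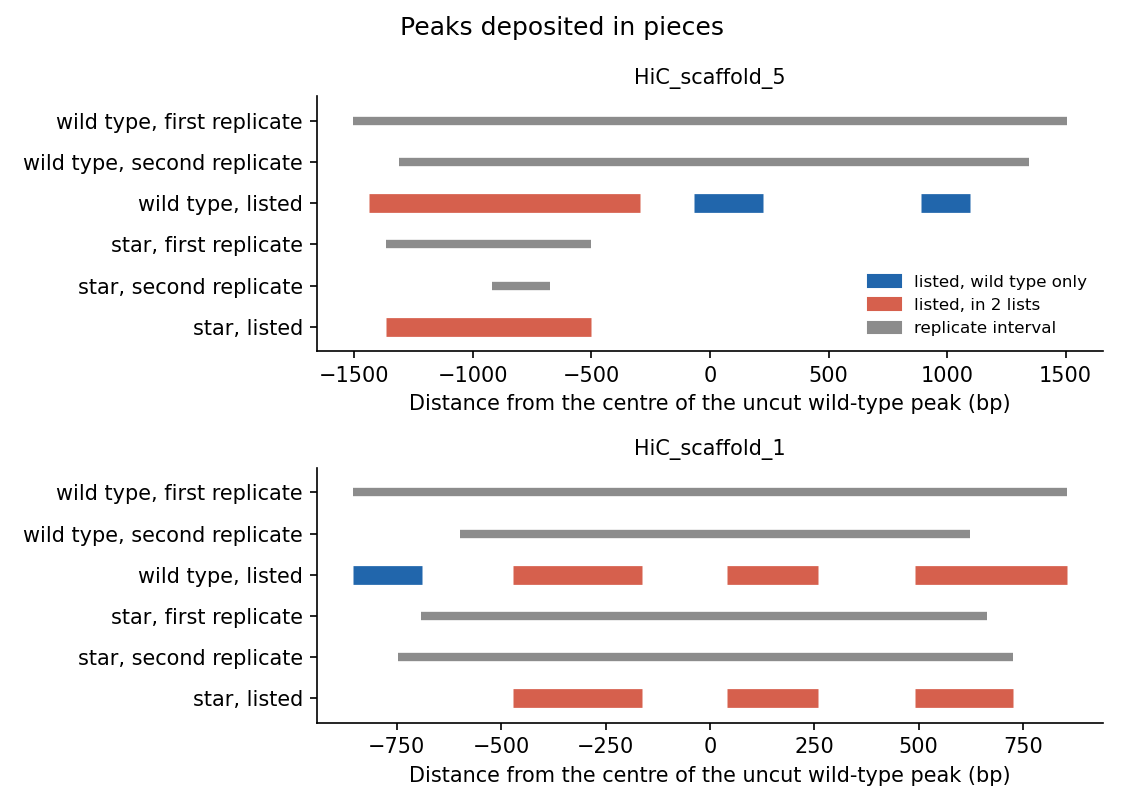
Peaks given in pieces on HiC_scaffold_5 (top) and HiC_scaffold_1 (bottom), by distance in bp from the centre of the uncut wild-type peak. Grey lines are replicate intervals, blue bars listed pieces found in the wild type only and red bars listed pieces in 2 lists; in both loci the uncut wild-type and star peaks overlap although single pieces do not.

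The next 6 regions of the set by signal were uncut, with percentiles from 82.2 to 86.5. The strongest of them, HiC_scaffold_1:21513476-21513718, had signals of 5.07 and 9.69, a −log10 IDR of 3.05 and replicate summits 36 bp apart, and the nearest chimera peaks lay 6657 bp (wico) and 6659 bp (star) away. HiC_scaffold_2:122062456-122062817 had signals of 5.63 and 9.09, a −log10 IDR of 3.43 and summits 5 bp apart. Its nearest wico peak was 69855 bp away and its nearest star peak 1851173 bp. HiC_scaffold_5:435824-436088 had signals of 5.45 and 9.09 and lay 70583 bp from the nearest chimera peak. In all 3 the second column was the higher, as in most of the list.

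HiC_scaffold_5:120907317-120907815 had signals of 4.88 and 9.49 and was 178957 bp from the nearest chimera peak. HiC_scaffold_2:2669314-2669679 had signals of 4.70 and 9.29, and HiC_scaffold_5:126574752-126575030 had 6.20 and 7.71. The last was the most even of these 6 uncut regions, with percentiles of 84.8 and 78.4 by the first and second column. In total, 100 of the 629 regions, or 15.9% (13.1 to 19%), were uncut, more than 500 bp from any chimera peak and at a global IDR of at most 0.02. These 3 criteria were set after the values were seen.

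The strongest regions of the remaining scaffolds were weaker. HiC_scaffold_6:4476615-4477270 had a percentile of 74.6, with signals of 4.32 and 8.37 and a wico peak 2226 bp away. HiC_scaffold_4:1080485-1080742 had a percentile of 74.0, with signals of 5.26 and 7.31. HiC_scaffold_7:152958294-152959281 was a cut peak at a percentile of 72.2, with signals of 5.80 and 6.56. HiC_scaffold_3:82664730-82665080 had a percentile of 70.0 that rested on the second column, where its signal was 8.10 against 3.94 in the first.

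That region was among the 3 whose first column was lowest relative to the second. The lowest was HiC_scaffold_2:2659217-2659546, with signals of 4.04 and 8.74 and a log2 ratio of -1.11. It lies near HiC_scaffold_2:2669314-2669679, one of the 10 strongest, and its nearest chimera peak was a wico peak 31835 bp away. The third was HiC_scaffold_6:94022838-94023241, with signals of 3.62 and 7.33. The 3 highest ratios belonged to cut pieces, namely the piece on HiC_scaffold_1 described above with 7.64 and 4.46, and both pieces of a peak at HiC_scaffold_5:44706364-44706621 and 44706898-44707499 with 6.57 and 3.95.

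The distance from a region of the set to the nearest chimera peak spanned a wide range, and overlap was barred by the choice. The median distance to the nearest wico or star peak was 47963 bp (40655 to 61998 bp), with the lowest at 49 bp and the highest at 1890058 bp. A chimera peak lay within 500 bp of 21 regions, or 3.34% (2.08 to 5.06%), and 7 of these 21 were cut. Within 10 kb there was a chimera peak for 142 regions, or 22.6% (19.4 to 26.0%), and 217 regions, or 34.5% (30.8 to 38.4%), had none within 100 kb. The median depended on the rule, and was 18221 bp when peaks were matched by centres at most 100 bp apart and 100982 bp for the upper 50% of each list. To the nearest region of any kind, the median was 36919 bp for the set and 24192 bp for shared wild-type regions.

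The median distance was 65840 bp to the nearest wico peak and 149753 bp to the nearest star peak. The nearest chimera peak was a wico peak for 479 regions, or 76.2% (72.6 to 79.4%), and wico peaks made up 67.5% (66.2 to 68.7%) of the chimera peaks on the long scaffolds. Where both chimeras have a peak at the nearest site, a few bp of peak edge decide which is nearest. Such a site also counts in both lists, so these shares are not directly comparable. Cut and uncut regions had nearly the same median distance, at 47963 bp and 47967.5 bp.

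**Figure D5:**
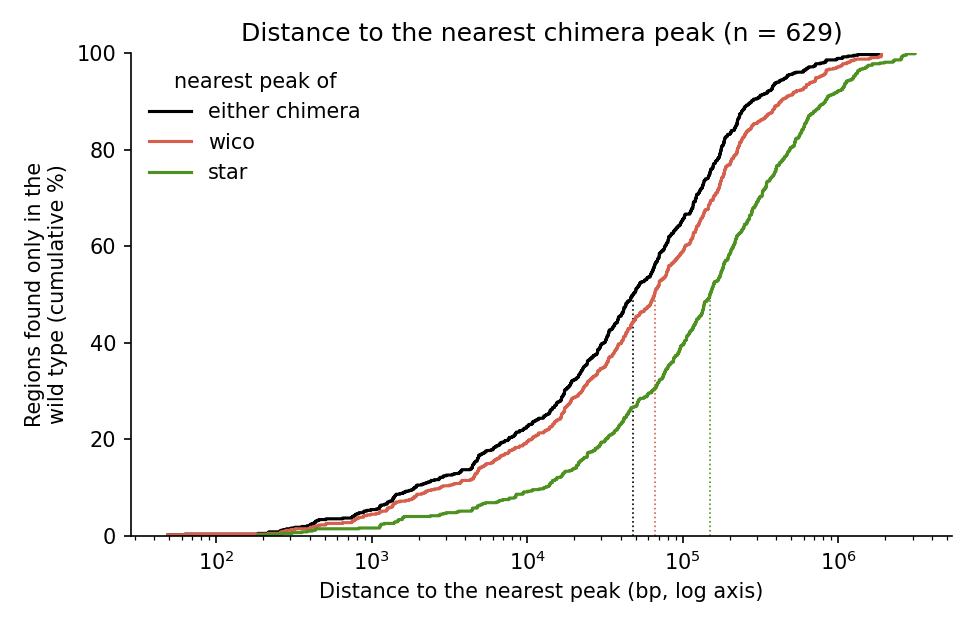
Cumulative share of the 629 regions (percent, vertical axis) by distance in bp to the nearest peak of either chimera (black), of wico (red) and of star (green), on a log axis. Dotted lines mark the medians of 47963, 65840 and 149753 bp; the star curve lies to the right of the wico curve over most of the range.

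The regions nearest to the limit of the rule were few on either side. HiC_scaffold_3:2986374-2986787 was 49 bp from a wico peak, with a percentile of 27.9. HiC_scaffold_2:53835699-53836308 was 63 bp from a wico peak, with a percentile of 66.7. The third, HiC_scaffold_2:60854079-60854289, was a cut piece 186 bp from a star peak, and its uncut span met that of a chimera peak. On the other side, a single shared wild-type peak was met by at most 100 bp, namely HiC_scaffold_1:95827081-95827633, which overlapped a star peak by 51 bp and had a percentile of 0.239. The next smallest overlaps, of 127 and 136 bp, were those of cut pieces, HiC_scaffold_1:91305016-91305142 at a percentile of 20.5 and HiC_scaffold_3:33725697-33725832 at 91.0, and covered the whole piece. Shared peaks were met by a median of 377.5 bp.

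The most remote regions lay on HiC_scaffold_2. Both pieces of a peak at 78549932-78550151 and 78550398-78550857 were 1890058 bp and 1889352 bp from the nearest chimera peak, with signals of 3.81 and 6.37 and a percentile of 49.6. HiC_scaffold_2:87932192-87932390 was 1333366 bp away, with signals of 4.51 and 4.35, and its replicate intervals shared 91.5% of their union.

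Along the scaffolds the regions mostly stood singly between regions of other kinds. The 629 regions formed 459 runs of a single region, 66 runs of 2, 8 of 3, 1 of 4 and 2 of 5, a run being a row of such regions with no other region between them. Both runs of 5 consisted largely of pieces. The run at HiC_scaffold_5:44522789-44900542 held 1 whole peak and 2 peaks in 2 pieces each, and that at HiC_scaffold_7:149443561-149648860 held 1 whole peak and 1 peak in 4 pieces, of which the signals were 3.62 and 6.65. With uncut spans and joined pieces the longest run had 3 regions.

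Of the regions next to a member of the set, 14.8% (12.9 to 16.9%) belonged to it too, against 12.4% of all regions. With pieces joined this share was 12.1% (10.3 to 14.1%), equal to the 12.1% of all regions. The nearest other wild-type region was a median of 74744 bp away (64759 to 88398 bp), against 50050 bp (46033 to 56605 bp) for shared wild-type regions. With pieces joined these medians were 88398 bp (74854 to 116995 bp) and 52178.5 bp (46308 to 58674 bp), and another wild-type region lay within 10 kb of 13.4% of the set and of 19.7% of shared regions. As listed, without joining, these shares were 19.6% and 20.6%.

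All 7 long scaffolds carried regions of the set, from 64 on HiC_scaffold_6 to 112 on HiC_scaffold_4. Per length, HiC_scaffold_4 held 0.996 regions per Mb and HiC_scaffold_6 held 0.464. As a share of the wild-type peaks of a scaffold, the set ranged from 19.2% (15.7 to 23.2%) on HiC_scaffold_1 to 27.4% (22.8 to 32.4%) on HiC_scaffold_5, with intervals that overlapped. The order by share thus differed from the order by density.

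Most of the regions, like most wild-type peaks, lay toward the scaffold ends. Of 10 equal segments of a scaffold the last alone held 134 of the 629, or 21.3%. In that segment the set made up 21.5% (18.3 to 24.9%) of the 623 wild-type peaks, against 23.4% on the long scaffolds as a whole. In the first 2 and last 2 segments together the set made up 21.9% (19.9 to 24.0%) of wild-type peaks, and in the inner segments 25.7% (23.1 to 28.4%). The largest share in a segment was 42 of 119 peaks, or 35.3% (26.8 to 44.6%), in the fifth, and the smallest was 17.1% (12.8 to 22.1%) in the eighth. Wild-type peaks of the inner segments ranked slightly lower, with a median percentile of 48.1 against 51.3. Among peaks of the lower 50% of the list the shares were 42.2% (38.1 to 46.5%) inside and 37.2% (33.8 to 40.7%) outside, and among those of the upper 50% they were 7.47% and 7.54%. The intervals of inner and outer segments overlapped over all ranks and in both parts of the list.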

How the data were processed

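PhDEF ChIP-seq peaks were analysed from 3 deposited lists without header lines, assigned to genotypes by the library numbers in the list names. The submitters' processing notes name FastQC, MultiQC, Bowtie2 2.4.2, MACS2 and bedtools without their roles; the genome build is not given in the sources used here. The deposited layout is that of the idr program, recognised from the values. The signal values deposited by the authors are sums of 2 replicate columns, have no stated unit, and were used only within a list. As deposited, the −log10 of the global IDR stops at 5, and its lowest values correspond to a global IDR of about 0.1. Deposited replicate intervals and summits were also used. Which library stands behind which replicate column is not stated.

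Percentiles refer to the whole list. Distances run from edge to edge. Intervals are Clopper-Pearson (shares) or from order statistics (medians), at 95%. A scaffold's length was taken as its largest peak end. No between-genotype test was made, since each genotype has 1 list. Overlap calculations were checked on simulated peaks, and differed from bedtools 2.31.1 on 0 wild-type peaks. The intervals of medians were checked on simulated normal values, and those of shares were not checked. Python 3.11.15, numpy 2.4.6, pandas 2.3.3, scipy 1.17.1 and matplotlib 3.10.9 were used.

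The regions and measures were chosen with earlier results of these data known. Regions named are the 10 strongest, the strongest per scaffold, and the 3 widest, farthest, nearest and most uneven between replicate columns in each direction, with the longest runs.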

Additional observations from a re-analysis of the deposited data

How the results depend on the processing

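The use of uncut spans, the omission of cut peaks and the 5 kb limit were chosen after seeing the data. With reciprocal overlap of at least 50% the set made up 26.3% of wild-type peaks and lay a median of 36380.5 bp from a chimera peak. With centres at most 100 bp apart these values were 32.5% and 18221 bp, the median percentile was 27.8 and the median width 446 bp. At a global IDR of at most 0.02 in all lists there were 225 regions, 14.8% of peaks, with a median percentile of 53.3 and a distance of 65413 bp. Of these 225, 140 belonged to the original set. With that limit in the wild-type list alone the values were 140, 9.21%, 53.3 and 32054 bp. The upper 50% of each list gave 214 regions, 15.9%, 60.7 and 100982 bp, of which 101 were in the original set. Lists of equal length (1781 peaks) gave 389 regions, of which 188 were in the original set, a percentile of 50.2, a width of 406 bp and 69549 bp. By construction, shortening the chimera lists adds regions and never shortens the distance of a given region to the nearest chimera peak. Removing weak wild-type peaks raises the percentile, also by construction. Counting a chimera peak within 5 kb as shared gave 19.5% and 70684.5 bp. Omitting cut peaks left 6 of the 10 strongest regions, since 4 were cut. Ranked by the first or second replicate column alone the median percentile was 24.3 or 21.9, and to wico or star alone the distance was 65840 bp or 149753 bp. Also by construction, the 5 kb rule removes the nearest regions, and the distance to wico or star alone is never below that to either. Matching by centres or by reciprocal overlap adds peaks that overlap a chimera peak, which shortens the median distance. For the remaining shifts the cause was not tested. Smaller shifts were seen with a 500 bp allowance (608 regions), with all scaffolds (769) or with uncut spans (603). In the fifth of 10 scaffold segments the share was 35.3% with either definition of scaffold length.

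No paired analysis was possible because the lists merge the replicates of a genotype and number neither column by replicate. Membership could not be recomputed without a replicate for the same reason. Since the depth is unknown, a peak missing from a list gives no upper limit on binding.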

Other observations

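Outside the 7 long scaffolds, 140 further regions were found in the wild type alone, 31.3% (27.0 to 35.8%) of the 447 wild-type peaks there. They were spread over 136 scaffolds, and 103 of them lay on a scaffold without any chimera peak. Their median percentile was 23.3 (16.0 to 28.1) and their median width 385 bp. A single one lay in the upper 10% of the list, with a summed signal of 24.8, above the 21.0 of the strongest region on the long scaffolds. Cut peaks made up 14 of the 140, or 10.0%.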
